A study of Homo sapiens with 24 samples.

Results

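FKBP5 and 8 other genes of the chaperone cycle that matures the glucocorticoid receptor (GR) were followed through a dexamethasone time course in newly made RNA. The members were named by gene, though with earlier results of these data known. They are the immunophilins FKBP5, FKBP4 and PPID, the HSP90 genes HSP90AA1 and HSP90AB1, and the cochaperones and HSP70 partners PTGES3, STIP1, HSPA8 and BAG1. These are 9 of the 61533 genes in the table of exon read counts, and all 9 passed the filter on low counts in every comparison.

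GR depends on molecular chaperones to bind hormone. HSC70 (HSPA8) with its cofactors loads the receptor, HOP (STIP1) hands it to HSP90 (HSP90AA1 and HSP90AB1), and p23 (PTGES3) and an immunophilin join the final complex, which holds the ligand pocket open. The immunophilin can be FKBP51 (FKBP5), which lowers hormone affinity, or FKBP52 (FKBP4) or cyclophilin 40 (PPID), and FKBP5 is itself a well-known target of activated GR, so its product forms a short feedback loop on the receptor.

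The cells were U2OS, a human osteosarcoma line with little GR of its own, carrying a GR-HaloTag fusion that had been integrated by transposon under a CMV promoter. The 3 lines, each a single sorted pool, carried wild-type GR (wt), the K492A mutant with reduced RNA and DNA affinity (SoF), or the R470A mutant with reduced DNA affinity (Ctrl), so construct and cell pool cannot be told apart. Cells in charcoal-stripped serum were sampled 1, 2 and 3 h into dexamethasone at 100 nM, or in 0.01% ethanol (0 h), with 200 µM 4-thiouridine in the final 1 h, and labelled RNA was pulled down and sequenced (4sU-seq). Each of the 12 groups had 2 libraries, 24 in all. How long the ethanol dishes were kept is not stated in the sources used here, so dexamethasone and the time since the medium change cannot be told apart.

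Library totals ran from 8106036 to 15820806 counts. Levels are given as CPM, the count as a share of the library total, scaled by TMM, a normalization that sets libraries on one scale by their shared genes. Osteoblast and mesenchymal markers were present (COL1A1 at 561 CPM, SPARC at 267 CPM and RUNX2 at 102 CPM over the 24 libraries), while SP7, COL1A2, TWIST1 and SPP1 were at 0.0479, 0.257, 0.00281 and 1.44 CPM. Among markers of other cells, PTPRC, CD3E, PECAM1 and CDH5 averaged below 1 CPM, CDH1 and EPCAM were at 4.22 and 2.01 CPM, and the keratins KRT8 and KRT18 were at 174 and 250 CPM. At 0 h the replicate 1 library was the higher of the pair in all 3 lines for 6 of the 9 members (FKBP4, HSP90AB1, PTGES3, STIP1, HSPA8 and BAG1) and the lower in all 3 lines for 1 member, FKBP5. All changes against 0 h average this difference over 2 libraries. In these bulk RNA samples, fewer cells making a transcript and less transcript per cell cannot be told apart.

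FKBP5 (ENSG00000096060.15) lies on the minus strand of chromosome 6 from 35573585 to 35728583 (hg38). Letters of the receptor's full palindromic element, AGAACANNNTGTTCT searched on both strands, occurred 1 time in its span of 154999 bases and in none of the other 8 spans. Those were shorter, from 5742 to 58958 bases, so fewer matches are expected in each. The match lies in intron 5 of the canonical transcript, 86.8 kb from its start, outside any annotated exon of FKBP5. It is shown because FKBP5 was the member that changed most, with 20 bases on each side and the matching letters in capitals (minus strand, chr6:35602062-35602116, hg38).
FKBP5 intron 5: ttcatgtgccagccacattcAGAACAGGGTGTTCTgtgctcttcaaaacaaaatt
Of 18628 windows of the same length along the autosomes and chromosome X, 2.96% held a match to these letters. A looser form, GNACANNNTGTNC, which every full match also meets, occurred 6 times in the FKBP5 span. The median was 2 per window, and 2.25% of windows held 6 or more. In the shorter span of HSP90AA1 it occurred 1 time (1.7 per 100 kb, beside 3.87 for FKBP5). A match describes letters and was not tested as a binding site.

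The HSP90 and HSC70 genes were searched for the heat shock element, the site of the heat shock factor HSF1. In RefSeq windows of 250 bases before each start (GRCh38.p14), 8 of the 9 members matched by symbol, with 13 windows; FKBP4 had none. The element with 3 units, TTCNNGAANNTTC or GAANNTTCNNGAA on either strand, occurred in windows of HSP90AB1, HSPA8 and HSP90AA1 and in none of the other 5 members with a window. Over 35116 such windows, 0.441% held it. In all 3 genes the window with the element lies inside the annotated gene span, before a start downstream of the gene's first base. The other windows of HSP90AB1 and HSP90AA1, nearer the outer end of each gene, held none. All 250 bases of the HSPA8 window are exonic in some annotated transcript, though none in the canonical one. Over whole gene spans, which differ in length, the element also occurred in STIP1 (3), PPID (2) and FKBP5 (2). HSP90AA1, HSP90AB1 and HSPA8 had 2 each, and FKBP4, PTGES3 and BAG1 had none. The sites are shown with 8 bases on each side because these are the members that hold the element in a window. Capitals mark the 13 matching letters.
HSP90AB1 165 bases before the start (plus strand, chr6:44247770-44247798): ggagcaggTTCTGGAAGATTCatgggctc
HSP90AB1 112 bases before the start (plus strand, chr6:44247823-44247851): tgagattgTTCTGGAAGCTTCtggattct
HSPA8 230 bases before the start (minus strand, chr11:123062346-123062374): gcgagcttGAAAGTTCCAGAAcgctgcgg
HSPA8 55 bases before the start (minus strand, chr11:123062171-123062199): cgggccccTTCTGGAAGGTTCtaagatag
HSP90AA1 88 bases before the start (minus strand, chr14:102087112-102087140): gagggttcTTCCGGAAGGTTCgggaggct
The HSP90AA1 element stands in the window of 250 bases before the gene's downstream start (minus strand, chr14:102087045-102087294). There a second match to the shorter form TTCNNGAA, which is part of the longer element and occurred in 6.62% of windows, lies 68 bases before the start.
HSP90AA1 promoter: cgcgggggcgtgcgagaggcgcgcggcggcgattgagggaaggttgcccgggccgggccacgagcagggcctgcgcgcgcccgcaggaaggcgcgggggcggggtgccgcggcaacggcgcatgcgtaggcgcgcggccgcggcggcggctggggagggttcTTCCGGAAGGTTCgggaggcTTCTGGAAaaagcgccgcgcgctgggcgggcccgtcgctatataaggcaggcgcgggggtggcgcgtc

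Levels of different genes were compared per kilobase of annotated exon, the union over all annotated transcripts of a gene. That union was longest for FKBP5 (10628 bases) and can exceed the length of the transcript made. The order between genes is therefore uncertain. HSP90AB1, the constitutive HSP90, was the highest of the 9 at 423 ± 62.3 CPM per kb (SD, n = 24). HSPA8 followed at 210.0 ± 46.5 and HSP90AA1, the inducible HSP90, at 71.8 ± 10.7 CPM per kb. PTGES3 stood at 32.7 ± 2.92 CPM per kb, and each of these 4 genes was above the next in 24 of 24 libraries. STIP1 (21.3 ± 5.23 CPM per kb) and FKBP4 (20.5 ± 8.22 CPM per kb) changed places between libraries, with STIP1 higher in 14 of 24. FKBP5 (9.40 ± 8.11 CPM per kb) and PPID (8.74 ± 1.43 CPM per kb) also changed places, with FKBP5 higher in 9 of 24, and BAG1 was at 6.21 ± 1.08 CPM per kb. The place of FKBP5 in this order moved with time. It was the lowest of the 9 in all 6 libraries at 0 h (1.82 to 3.18 CPM per kb) and in all 6 at 1 h, and stood between rank 5 and rank 7 in the 6 libraries at 3 h (16.0 to 28.1 CPM per kb).

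FKBP5 rose in every line. In wt it read 22.8 and 28.0 CPM at 0 h, 45.4 and 37.9 at 1 h, 75.6 and 121 at 2 h, and 214 and 224 CPM at 3 h. In SoF the libraries read 19.4 and 27.3 CPM at 0 h, 41.6 and 38.0 at 1 h, 95.2 and 112 at 2 h, and 298 and 297 CPM at 3 h. In Ctrl they read 31.6 and 33.8 CPM at 0 h, 49.0 and 37.8 at 1 h, 120 and 85.1 at 2 h, and 170 and 171 CPM at 3 h. Within each line no library of a later time fell to the level of the 0 h libraries, and at 3 h the lines did not overlap, with SoF highest and Ctrl lowest. At 0 h the order was not the same, since Ctrl was the highest line.

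**Figure D1:**
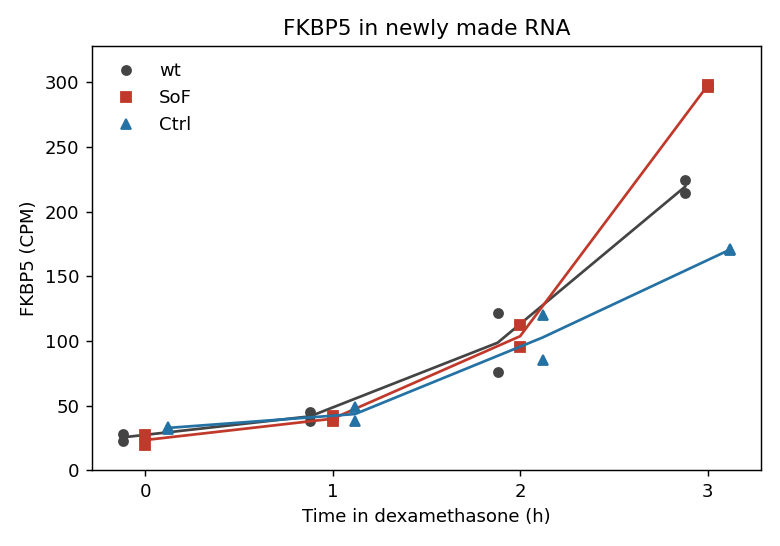
FKBP5 in each of the 24 libraries (points, CPM) against hours in dexamethasone, with lines through the group means of wt, SoF and Ctrl (n = 2). The lines lie close together to 2 h and part at 3 h, where SoF read 298 and 297, wt 214 and 224 and Ctrl 170 and 171 CPM.

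Changes were tested in edgeR (quasi-likelihood F test, Benjamini-Hochberg adjustment over the 23651 genes tested, called at an adjusted p under 0.05). At 3 h FKBP5 had risen 8.64-fold in wt (log2 3.11, SE 0.22, edgeR adjusted p = 6.49e-09), 12.8-fold in SoF (log2 3.68, SE 0.22, edgeR adjusted p = 3.85e-10) and 5.23-fold in Ctrl (log2 2.39, SE 0.21, edgeR adjusted p = 2.58e-07). By p it was the 4th gene of all tested in wt and in SoF and the 12th in Ctrl, although 48, 49 and 59 called rising genes had larger fold changes. At 2 h the log2 changes were 1.96 (wt), 2.16 (SoF) and 1.65 (Ctrl), all called. At 1 h it was 0.71, 0.78 and 0.41, none of them called in a single line, while the mean of the lines, 0.64, was called (edgeR adjusted p = 0.00617). Averaged over the lines FKBP5 went on rising from 1 h to 2 h (log2 1.29, SE 0.12) and from 2 h to 3 h (log2 1.14, SE 0.12), and both steps, which were added after the values were seen, were called.

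The lines differed in how far FKBP5 rose by less than the edgeR threshold over all genes could call. By 3 h the SoF response exceeded that of Ctrl by log2 1.29 (SE 0.29, 95% interval 0.69 to 1.90), with an unadjusted p of 0.000212 in edgeR's fit, rank 11 of 23651 genes, and an adjusted p of 0.386. DESeq2 called this difference (log2 1.29, adjusted p = 0.0341), and so did edgeR without the filter on low counts (log2 1.31, adjusted p = 0.000366). Leaving out single libraries of these groups, or one 0 h replicate of every line, gave log2 differences of 1.06 to 1.55, none of them called. Against wt, the response differed by log2 0.57 in SoF (95% interval -0.04 to 1.17, edgeR adjusted p = 1.00) and by log2 -0.73 in Ctrl (95% interval -1.33 to -0.12, edgeR adjusted p = 0.982). RNA of NR3C1, the receptor's gene, from the endogenous gene and the fusion together, also differed between lines. At 0 h it read 552 and 824 CPM in wt, 2833 and 2428 CPM in SoF and 3202 and 3431 CPM in Ctrl. At 3 h it read 334 and 366 CPM in wt, 1118 and 1130 in SoF and 1764 and 1627 in Ctrl. In the mean of the lines it changed by log2 1.07 at 1 h and -1.06 at 3 h. By immunofluorescence, the study picked its sorted pools to match nuclear GR protein between lines after dexamethasone. The part of NR3C1 RNA in the FKBP5 difference was not tested.

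Of the 9 members, edgeR called 0 in the difference of 3 h responses for SoF minus wt, 0 for Ctrl minus wt and 0 for SoF minus Ctrl. The shares of all genes called in either direction were 0%, 0% and 0.0127%. At an unadjusted p under 0.05 edgeR had 1 member in each (BAG1, FKBP5 and FKBP5), and DESeq2 called 0, 0 and 1.

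Few members were called in single lines, and more in the mean of the 3 lines. At 1 h edgeR called 0 of 9 as rising in wt, SoF and Ctrl, where 0.118%, 0.161% and 0.0465% of all genes were called rising, with 1, 2 and 0 members at an unadjusted p under 0.05 and 0 called by DESeq2 in each line. In the mean of the lines at 1 h FKBP5 alone was called, against 0.731% of genes. At 2 h 2 of 9 rose in each line (FKBP5 and FKBP4), against 3.39% of genes in wt, 4.2% in SoF and 5.58% in Ctrl, and 6 of 9 rose in the mean of the lines, against 16.2%. At 3 h 2 of 9 rose in wt, 3 in SoF and 3 in Ctrl, against 6.6%, 11.2% and 8.58% of genes, and 5 of 9 rose in the mean of the lines, against 20.9%. No member was called as falling against 0 h at any time. The median log2 change of the 9 at 3 h in the mean of the lines was 0.22, beside -0.03 over all genes tested.

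**Figure D2:**
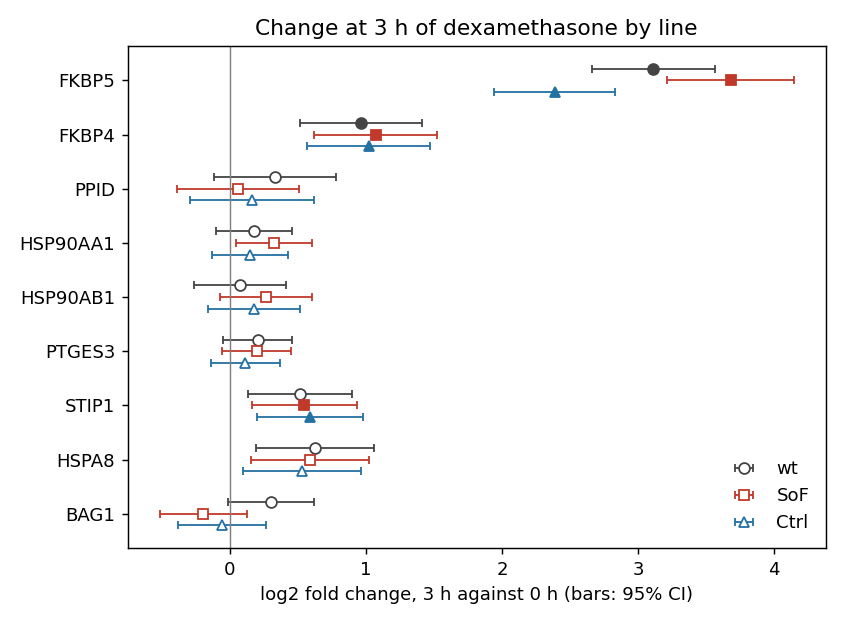
Change of each member at 3 h against 0 h on the log2 scale (x axis) in wt, SoF and Ctrl, with 95% intervals from the edgeR fit. Filled symbols were called and open ones were not: FKBP5 and FKBP4 were called in all 3 lines and STIP1 in SoF and Ctrl.

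FKBP4 (ENSG00000004478.8, chromosome 12 from 2794970 to 2805423), the counterpart immunophilin that favours receptor activity, also rose, and was first called at 2 h. In wt it read 85.3 and 66.8 CPM at 0 h, 66.5 and 88.4 at 1 h, 134 and 182 at 2 h, and 146 and 151 CPM at 3 h. In SoF it read 86.5 and 51.4 CPM at 0 h, 48.4 and 52.5 at 1 h, 125 and 121 at 2 h, and 136 and 155 CPM at 3 h. In Ctrl it read 83.7 and 56.4 CPM at 0 h, 61.3 and 60.8 at 1 h, 135 and 159 at 2 h, and 127 and 159 CPM at 3 h. All 12 libraries of 2 h and 3 h stood above all 12 of 0 h and 1 h. The 3 h change was close to a doubling in each line, 1.95-fold in wt (log2 0.97, SE 0.22), 2.10-fold in SoF (log2 1.07, SE 0.22) and 2.03-fold in Ctrl (log2 1.02, SE 0.22), with edgeR adjusted p of 0.0053, 0.0014 and 0.00316. FKBP4 rose from 1 h to 2 h by 2.29-fold (SE 0.13 in log2, edgeR adjusted p = 2.69e-07) and then moved by log2 0.04 (95% interval -0.22 to 0.29) to 3 h. At 3 h the line responses of FKBP4 differed by at most log2 0.11, with intervals from -0.58 to 0.74. Without the 0 h replicate 2 library of its own line, the 3 h change was log2 0.82 in wt, 0.75 in SoF and 0.77 in Ctrl, and without the 3 h replicate 2 library of Ctrl it was 0.85 there, none of them called.

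PPID (ENSG00000171497.5, chromosome 4 from 158709127 to 158723396), the cyclophilin of the complex, showed no called change with time. Its libraries ran from 13.3 to 25.4 CPM in wt, 23.4 to 27.0 in SoF and 16.9 to 24.6 in Ctrl. The 3 h change in the mean of the lines was log2 0.18 (95% interval -0.08 to 0.44, edgeR adjusted p = 0.253). Of its exonic bases 56.7% are shared with ETFDH on the opposite strand, and the use of strand in counting is known from the table's title alone, so its level is uncertain.

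Because FKBP5 and FKBP4 compete for the same place on HSP90, their counts were set against each other within each library. The FKBP5 to FKBP4 count ratio at 0 h was 0.267 and 0.419 in wt, 0.224 and 0.530 in SoF, and 0.377 and 0.599 in Ctrl. At 3 h it was 1.47 and 1.48 in wt, 2.19 and 1.91 in SoF, and 1.34 and 1.08 in Ctrl. Every 3 h library had more FKBP5 than FKBP4 reads and every 0 h library fewer. The mean log2 ratio rose by 2.02 from 0 h to 3 h (exact permutation test within lines, two-sided, p = 0.00926, the smallest that the arrangements allow, adjusted p = 0.0185 over 2 ratios). The ratio counts reads, and FKBP5 has the longer exon sequence (10628 bases against 5163 for FKBP4). Per kb of exon, FKBP4 stood above FKBP5 in 23 of 24 libraries. The exception was replicate 1 of SoF at 3 h (26.3 CPM per kb for FKBP4 and 28.1 for FKBP5). A ratio above 1 therefore does not mean more FKBP5 than FKBP4 transcripts. The order per kb in turn rests on the union of annotated exons, so it does not settle which gene had more transcripts.

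**Figure D3:**
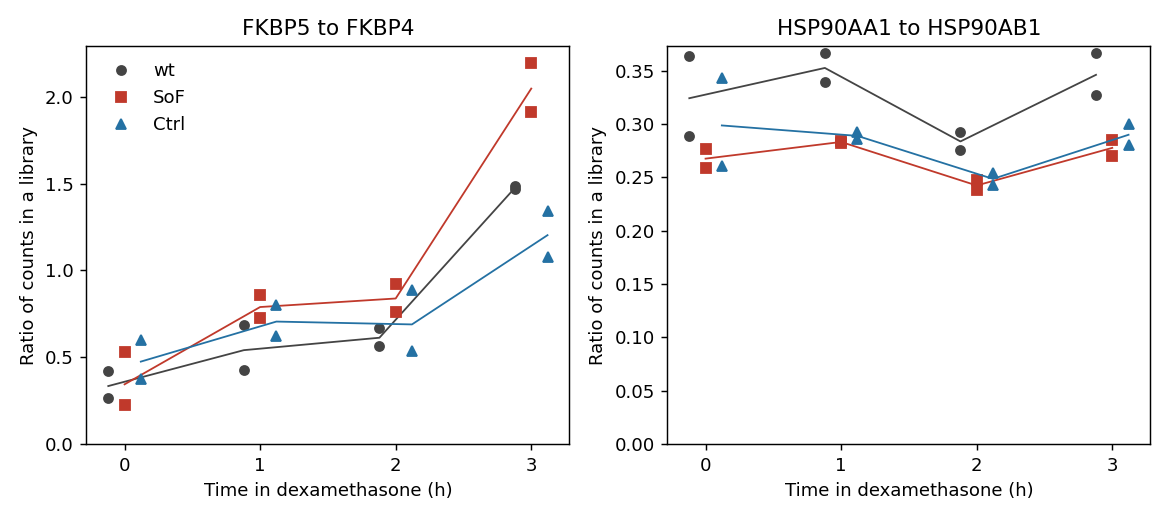
Ratio of counts within each library (points) against hours in dexamethasone, with lines through the geometric means of each line's 2 libraries. The FKBP5 to FKBP4 ratio moved from 0.224 to 0.599 at 0 h to 1.08 to 2.19 at 3 h, and the HSP90AA1 to HSP90AB1 ratio lay between 0.238 and 0.367 at all times.

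The HSP90 pair moved little. HSP90AA1 (ENSG00000080824.19, chromosome 14 from 102080742 to 102139699) read 388 and 389 CPM at 0 h and 458 and 421 at 3 h in wt, 306 and 255 against 344 and 356 in SoF, and 386 and 377 against 431 and 416 in Ctrl. Both 3 h libraries were above both 0 h libraries in each line, by small margins. The change in the mean of the lines was 1.16-fold (log2 0.22, SE 0.08, edgeR adjusted p = 0.0302). This call was lost on leaving out replicate 1 of wt at 0 h or 3 h, replicate 2 of SoF at 0 h or 3 h, replicate 2 of Ctrl at 0 h or its replicate 1 at 3 h (log2 0.18 to 0.21, adjusted p up to 0.104), and without the filter on low counts (adjusted p = 0.0782). HSP90AB1 (ENSG00000096384.20, chromosome 6 from 44246166 to 44253888) read 1344 and 1070 CPM at 0 h, 1342 and 1480 at 2 h and 1250 and 1289 CPM at 3 h in wt. In SoF it read 1181 and 922 CPM, 1327 and 1280, and 1207 and 1318 CPM, and in Ctrl 1485 and 1099 CPM, 1480 and 1594, and 1436 and 1486 CPM. The 0 h libraries overlapped those of 2 h and 3 h in wt and Ctrl. In SoF they overlapped only those of 1 h (956 and 971 CPM). HSP90AB1 was called in the mean of the lines at 2 h (log2 0.26, edgeR adjusted p = 0.0415) and not at 3 h (log2 0.17, 95% interval -0.02 to 0.37, edgeR adjusted p = 0.156). Leaving out libraries moved the 3 h change between log2 0.003 and 0.37, and it was called without replicate 1 of Ctrl at 0 h (log2 0.26) and without the 0 h replicate 1 libraries of every line (log2 0.37). The ratio of HSP90AA1 to HSP90AB1 counts changed by log2 0.03 from 0 h to 3 h (exact permutation test within lines, two-sided, p = 0.694, adjusted p = 0.694). Counts of annotated pseudogenes equalled 1.45% of HSP90AA1 counts and 1.56% of HSP90AB1 counts, so small shifts in either gene are uncertain.

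STIP1 and HSPA8, which act before HSP90, rose in the mean of the lines at 2 h and at 3 h. STIP1 (ENSG00000168439.17, chromosome 11 from 64185272 to 64204543) went from 94.8 and 80.8 CPM at 0 h to 124 and 128 at 3 h in wt, from 93.1 and 70.5 to 110 and 129 in SoF, and from 89.5 and 67.9 to 115 and 122.6 in Ctrl. HSPA8 (ENSG00000109971.14, chromosome 11 from 123057489 to 123063230) went from 857 and 712 CPM to 1159 and 1263 in wt, from 1022 and 689 to 1224 and 1346 in SoF, and from 1114 and 736 to 1345 and 1328 in Ctrl. In every line both 3 h libraries of both genes were above both 0 h libraries. In the mean of the lines STIP1 rose 1.47-fold (log2 0.55, SE 0.11, edgeR adjusted p = 0.000302) and HSPA8 rose too (log2 0.58, SE 0.12, edgeR adjusted p = 0.000581). In single lines STIP1 passed in SoF (log2 0.55) and Ctrl (log2 0.59), not in wt (log2 0.52, edgeR adjusted p = 0.0782), and HSPA8 in none, with edgeR adjusted p of 0.0525 to 0.0952. DESeq2 called HSPA8 in wt (adjusted p = 0.0269) and SoF (adjusted p = 0.0355), and edgeR without the filter called it in all 3 lines. The STIP1 calls were lost on leaving out replicate 2 of 0 h (log2 0.36 in SoF, 0.40 in Ctrl) or either 3 h library (0.43 to 0.65 in SoF, 0.55 to 0.64 in Ctrl), and in SoF with median-of-ratios size factors (log2 0.52, edgeR adjusted p = 0.0502). In wt STIP1 was called with library size alone (edgeR adjusted p = 0.0467) and without the filter (edgeR adjusted p = 0.0453). Most of the STIP1 change fell between 1 h and 2 h (log2 0.68, called), with log2 0.07 from 2 h to 3 h, which was not called. Without the 0 h replicate 1 libraries of every line, an alternative chosen after seeing the data, the mean changes were log2 0.74 for STIP1 and 0.84 for HSPA8, and without the replicate 2 libraries 0.40 and 0.37, all called. PTGES3 (ENSG00000110958.16, chromosome 12 from 56663341 to 56688408) ran from 92.5 to 128 CPM over all libraries and missed the threshold at 3 h (mean of the lines log2 0.17, 95% interval 0.02 to 0.32, edgeR adjusted p = 0.058).

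BAG1 (ENSG00000107262.26, chromosome 9 from 33247820 to 33264720), which makes HSC70 release its nucleotide and client, was called as higher than 0 h at 2 h and not at 1 h or 3 h. In wt it read 40.6 and 36.9 CPM at 0 h, 51.4 and 58.0 at 2 h and 50.6 and 44.9 CPM at 3 h. In SoF it read 46.9 and 39.7 CPM, then 56.6 and 55.0, then 37.6 and 38.1 CPM, and in Ctrl 43.9 and 38.3 CPM, then 55.2 and 53.7, then 40.05 and 38.99 CPM. All 6 libraries at 2 h were above all 6 at 0 h, and at 3 h SoF was below its 0 h libraries while wt stayed above. The mean of the lines was higher at 2 h by log2 0.42 (SE 0.09, edgeR adjusted p = 0.00111), fell from 2 h to 3 h by 0.41 on the log2 scale (edgeR adjusted p = 0.00383), and at 3 h was at log2 0.02 (95% interval -0.17 to 0.20). From 1 h to 2 h edgeR called 7 of the 9 members as rising, all but PPID and HSP90AA1, against 22.7% of genes. From 2 h to 3 h it called 2 of 9, FKBP5 up and BAG1 down, against 10% of genes in either direction.

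**Figure D4:**
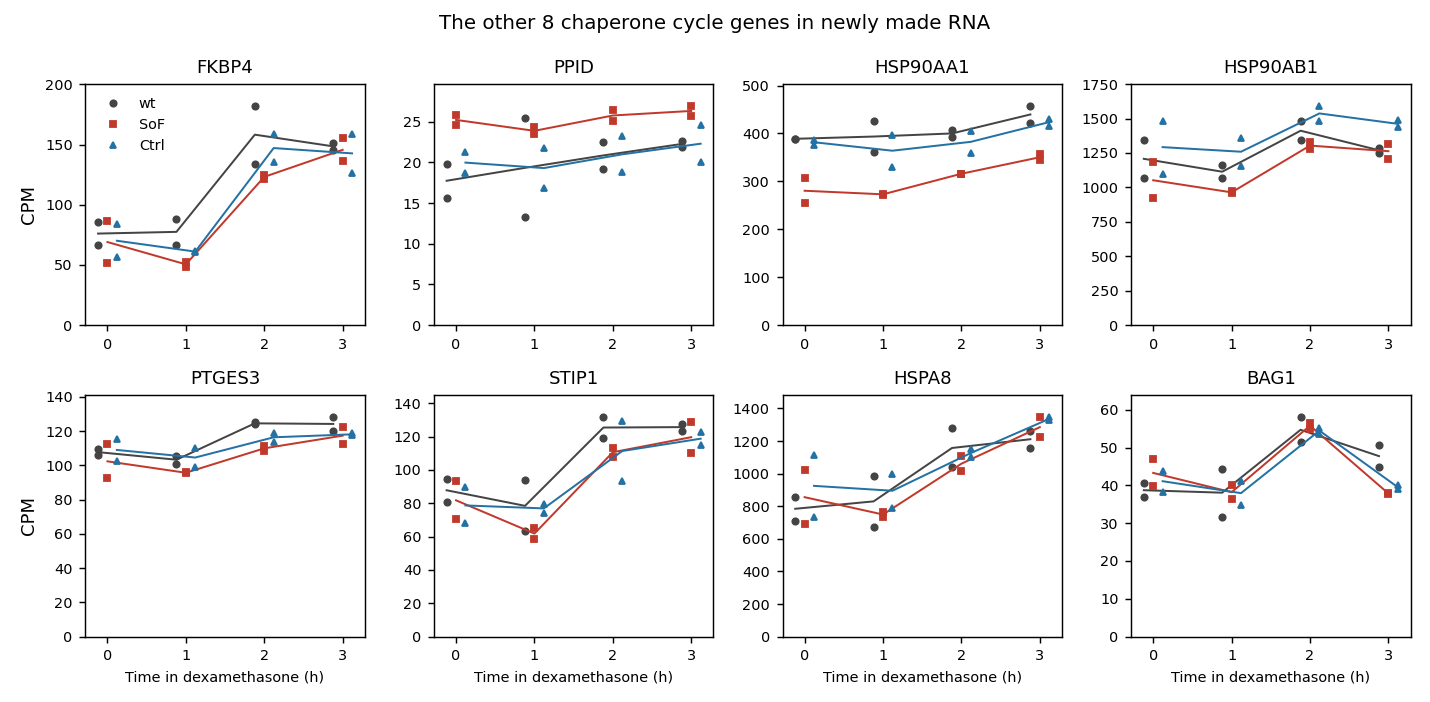
CPM of the other 8 members in each library (points) against hours in dexamethasone, with lines through the group means of wt, SoF and Ctrl (n = 2). FKBP4, STIP1 and HSPA8 step up after 1 h, and the SoF level of HSP90AA1 lies under the other lines at each time. BAG1 is high at 2 h in every line, and at 3 h it stays above its 0 h libraries in wt alone.

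The study also compared constructs with time ignored. In that fit each line had 8 libraries, and 21122 genes were tested. HSP90AA1 was lower in SoF, at 305 ± 35.9 CPM (SD, n = 8, range 255 to 356), than in wt, at 405 ± 29.6 CPM (n = 8, range 361 to 458), with no overlap of libraries, and than in Ctrl, at 388 ± 32.2 CPM (n = 8, range 330 to 431). The log2 difference was -0.40 against wt (SE 0.08, edgeR adjusted p = 0.0017) and -0.34 against Ctrl (SE 0.08, edgeR adjusted p = 0.00675). PPID was higher in SoF, at 25.3 ± 1.17 CPM (n = 8), than in wt, at 20.1 ± 3.99 CPM (n = 8), by log2 0.34 (SE 0.11, edgeR adjusted p = 0.0467). Thus edgeR called 2 of 9 members between SoF and wt, 1 between SoF and Ctrl and 0 between Ctrl and wt, where 8.02%, 3.61% and 4.77% of all genes were called. Between Ctrl and wt 0 members had an unadjusted p under 0.05 and DESeq2 called 0. Using 1 replicate number alone, 4 libraries per line, gave an HSP90AA1 difference from wt of -0.36 to -0.45 and a PPID difference of 0.19 without replicate 1 and 0.52 without replicate 2, none of them called. PPID also lost its call without the filter on low counts (log2 0.31, edgeR adjusted p = 0.176).

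The genes beside these 2 members were then compared in the same fit, a step added after the values were seen. Of the 10 tested protein-coding genes on each side of HSP90AA1, 20 of 20 were lower in SoF than in wt (median log2 -0.27, range -0.85 to -0.03) and 4 were called, among them DYNC1H1 (log2 -0.45) and MOK (log2 -0.85). Over all 465 tested protein-coding genes of chromosome 14 the median was log2 -0.11, and 69% were lower in SoF than in wt. Around PPID 17 of 20 were higher in SoF (median log2 0.20), 3 of them called. ETFDH, which shares exonic bases with PPID on the opposite strand, was among the 20 (log2 0.59, not called). The median of the 490 genes of chromosome 4 was log2 0.06, and 41.2% were lower in SoF than in wt. Over all genes tested the median was log2 -0.01, and 8.02% were called between SoF and wt in either direction. The lower HSP90AA1 and higher PPID of the SoF pool therefore lay among neighbours that differed the same way, and the part of the region in these differences was not tested.

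**Figure D5:**
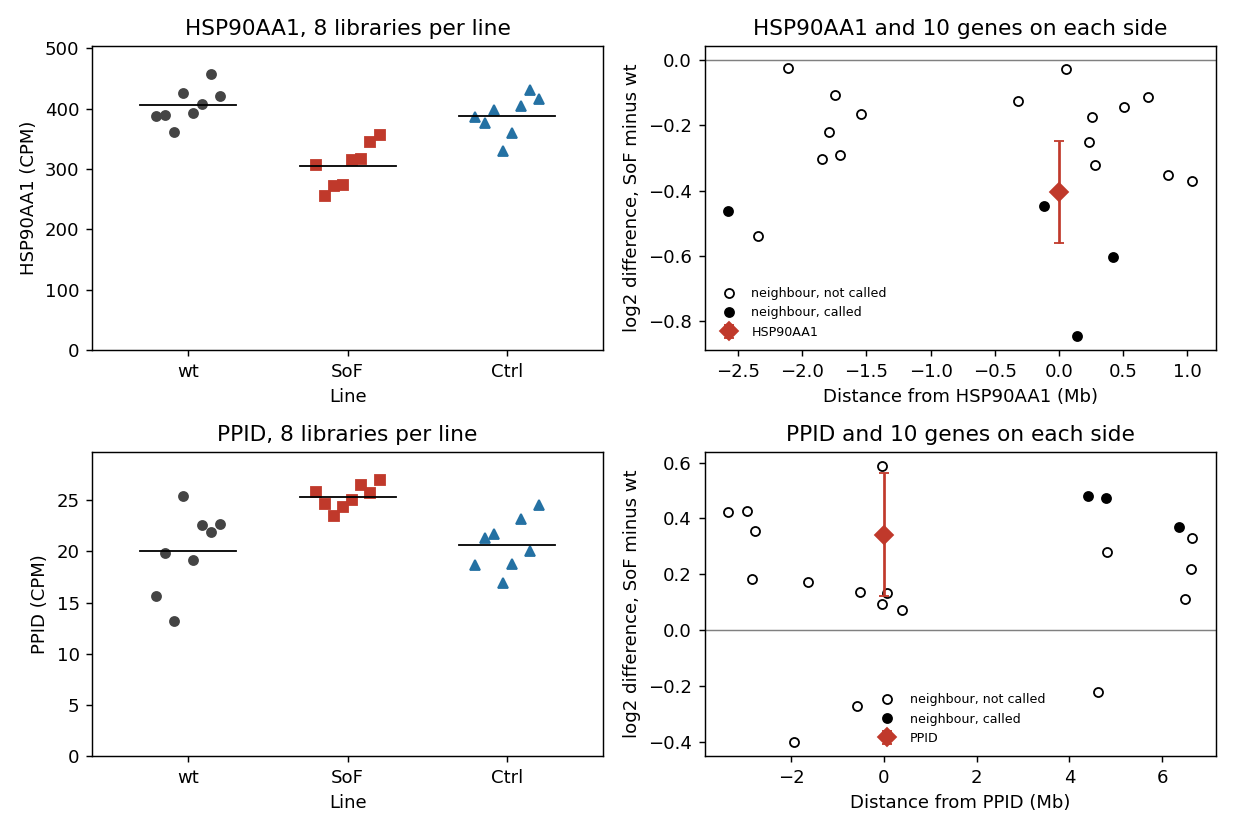
Left, HSP90AA1 and PPID in the 8 libraries of each line (points, CPM, in order of time) with the mean as a bar. Right, log2 difference of SoF minus wt for each member (diamond, 95% interval) and for 10 tested protein-coding genes on each side against distance in Mb, with called genes filled: 20 of 20 neighbours of HSP90AA1 were below 0 and 17 of 20 of PPID above it.

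The wider chaperone machinery was read from a list of 43 further cochaperones and chaperones, all of which were tested. At 3 h in the mean of the lines 22 rose, 1 fell and 20 were not called, where 20.9% of all genes were called rising and 19.3% falling, and the median log2 change was 0.26 beside -0.03 over all genes. The largest called changes were those of STUB1, the ubiquitin ligase CHIP of the chaperone system (log2 0.73), TRAP1, the mitochondrial HSP90 (0.68), HSPA1A and HSPA1B, the inducible HSP70 pair (0.64 and 0.59), HSF1 (0.60) and TOMM34, a cochaperone of mitochondrial import (0.55). HSPA1A and HSPA1B are near-identical, so their counts are uncertain. The gene that fell was DNAJB1, an HSP40 (log2 -0.31, edgeR adjusted p = 0.027). At 2 h 16 of the 43 rose, against 16.2% of all genes, and 2 fell, against 12.6%, namely DNAJB1 (log2 -0.42) and CHORDC1, a cochaperone of HSP90 (log2 -0.50). At 1 h 0 were called by edgeR in the mean of the lines (13 at an unadjusted p under 0.05), and none was called in any difference between lines in the 3 h response. With time ignored, 4 of the 43 were called between SoF and wt, a share near the 8.02% of all genes and so no result about the list. Of these, DNAJC7 and SUGT1 were higher in SoF than in wt (log2 0.23 and 0.37), and BAG5 and HSPA5, the HSP70 of the endoplasmic reticulum, were lower (log2 -0.27 and -0.56). BAG5 was also lower in SoF than in Ctrl (log2 -0.27).

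Of 18 heat shock genes 17 were tested (HSPA4L failed the filter), and some of them are also among the 43. At 3 h in the mean of the lines 12 of the 17 rose and 1, DNAJB1, fell, again against 20.9% and 19.3% of all genes, with a median log2 change of 0.41 beside -0.03 over all genes, and SERPINH1, a collagen chaperone, was lower in SoF than in Ctrl with time ignored (log2 -0.42). HSPA6, the strictly inducible HSP70, had the largest change (log2 1.73, SE 0.35) at a very low level, 0.24 to 1.08 CPM at 0 h and 1.17 to 2.65 CPM at 3 h. CRYAB, a small heat shock protein, rose by log2 1.52 (SE 0.13), HSPB1, another, by 0.73, and HSPA1L by 0.68. CRYAB was called in each line (log2 1.41 in wt, 1.73 in SoF and 1.42 in Ctrl).

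Across the means of the 12 groups, the members' profiles were set beside each other as Pearson's r on log2 CPM, which describes 12 points that share the time course. FKBP4 lay closest to STIP1 (r = 0.978) and PTGES3 (r = 0.927), and FKBP5 closest to HSPA8 (r = 0.922). HSP90AA1 and PPID had r = -0.563, over means in which SoF was the lowest line for HSP90AA1 and the highest for PPID at every time. Of 19701 genes with a mean of at least 1 CPM, those most like FKBP5 were HACD3 (r = 0.993), FOXO1 (0.983), IL1R1 (0.981), MTFMT (0.979) and SSH1 (0.977). FOXO1, a forkhead transcription factor, rose at 3 h by log2 2.13 in wt, 2.78 in SoF and 1.65 in Ctrl, and IL1R1, an interleukin-1 receptor, by 1.45, 2.16 and 1.35. These genes were picked for likeness to FKBP5 over the same 12 means. Their sharing its order of lines is therefore no separate result. Those most like HSP90AA1 were RAPGEF1 (r = 0.947), MRFAP1 (0.942), ENSG00000260073 (0.937), GLO1 (0.936) and PGAP4 (0.935).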

How the data were processed

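Newly made RNA of 24 libraries (3 lines, 4 times, 2 libraries each) was analysed. Per the labels and the study's methods, the authors tagged molecular identifiers with UMI-tools 1.1.2, trimmed with Trim Galore 0.6.6, aligned to hg38 with STAR 2.7.3a, removed duplicates and counted reads over GENCODE exons with featureCounts. The deposited values are raw counts per gene, unnormalized. Of 61533 rows, 61369 (99.7%) matched GENCODE release 44, which gave symbols and hg38 positions. The 9 members and all lists were chosen with earlier results of these data known.

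Counts were tested in edgeR 4.0.16 (R 4.3.3, limma 3.58.1) with TMM, filterByExpr (minimum count 10, minimum total 15), a quasi-likelihood F test per gene and Benjamini-Hochberg correction across all tested. One fit over the 12 groups gave responses and their differences, and one over the 3 lines gave levels with time ignored. Intervals are 95%. CPM used TMM-scaled library sizes, and CPM per kb the union of GENCODE exons. Ratios were tested by exact permutation within lines. DESeq2 1.42.0, other scalings, no filter, a replicate term and leaving out libraries were alternatives. The edgeR fit was tested on simulated data. Nothing says that the 2 libraries of a group came from separate cultures, so p-values measure the spread between libraries, which was 5.475 to 19.72 times counting error (chi-square per degree of freedom). Per the study's methods, replicates went through biotinylation and pulldown in pairs. If those pairs were the 2 libraries of a group, pulldown batch cannot be told apart from line and time. The spread between libraries would then leave that batch out. Members are all named; of the 43 and 18 further genes, those called at 3 h in the mean of the lines and among the 6 largest changes of their list, or called between lines, are named, with single called genes added after their values were seen. One marker gene is not reported here.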

Additional observations from a re-analysis of the deposited data

Results flagged for a closer look

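BAG1 moved in opposite directions in 2 lines at 3 h: both wt libraries (50.6 and 44.9 CPM) were above both of 0 h (40.6 and 36.9 CPM), and both SoF libraries (37.6 and 38.1 CPM) were below both of 0 h (46.9 and 39.7 CPM). The response of SoF minus wt was log2 -0.50 (95% interval -0.95 to -0.05, unadjusted p = 0.0326 and adjusted p = 1.00 in edgeR's fit), so the difference was not called over all genes. Neither line's own change was called, with log2 0.30 in wt (edgeR adjusted p = 0.23) and -0.20 in SoF (edgeR adjusted p = 0.403). Every member and pair of lines was scanned for such a split.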

How the results depend on the processing

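The rise of FKBP5 at 3 h kept its direction and call in each line under every alternative run, with log2 changes of 2.95 to 3.29 in wt, 3.46 to 3.94 in SoF and 2.35 to 2.43 in Ctrl on leaving out libraries. The FKBP5 response of SoF minus Ctrl became called without the filter on low counts (log2 1.31) and in DESeq2 (log2 1.29), each with 1 member then called in place of 0; leaving out libraries it ran from 1.06 to 1.55, with -0.90 to -0.57 for Ctrl minus wt and 0.34 to 0.82 for SoF minus wt, and 0 members called throughout. Members called at 3 h numbered 4 in wt with library size alone and 4 without the filter. On leaving out single libraries they numbered 1 to 2 in wt, 1 to 5 in SoF, 1 to 4 in Ctrl and 4 to 7 in the mean of the lines. The lows were without replicate 2 at 0 h of each line and at 3 h of Ctrl, and the 5 without replicate 1 of SoF at 0 h. Without the 0 h replicate 1 libraries of every line, an alternative chosen after seeing the data in which the lone 0 h library is assumed to vary like the other groups, they numbered 3, 6 and 4. Between lines, SoF against wt had 1 member called without the filter, where PPID lost its call, SoF against Ctrl 3 with an additive time term, and each 0 with 1 replicate number alone. The ratio of FKBP5 to FKBP4 rose by log2 1.96, 1.74 and 2.36 without wt, SoF or Ctrl, where 36 arrangements allow no p under 0.0556, and that of HSP90AA1 to HSP90AB1 changed by 0.01 to 0.07. The 6 members called at 2 h in the mean of the lines numbered 5 under either other scaling. No difference that had been called changed sign, while several small ones that had not been called did, among them BAG1 at 3 h in the mean of the lines and FKBP5 for Ctrl minus wt with time ignored. The causes of these changes were not tested, apart from the smaller number of libraries or genes that an alternative itself sets.

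Replicate numbers did not pair the libraries throughout: over 66 pairs of groups the correlation of deviations ran from -0.221 to 0.568, and 21 exceeded 0.1. The 0 h groups did deviate together by number (0.396 for wt and SoF, 0.394 for wt and Ctrl, 0.568 for SoF and Ctrl), as did SoF at 0 h with SoF at 1 h (0.369) and 2 h (0.434). With the replicate block, HSPA8 was also called in wt (log2 0.63) and SoF (log2 0.59), giving 3 and 4 members, and the FKBP5 response of SoF minus Ctrl was not called (adjusted p = 0.257 in edgeR).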
